A study of Mus musculus with 16 samples.

Results

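F4/80- myeloid cells and F4/80+ macrophages were sorted from the interface tissue around the tendon graft of mice after anterior cruciate ligament reconstruction (ACLR), on day 1 and on day 14 after surgery. The comparison described here is the difference in their change over time, that is, the day 14 minus day 1 change of F4/80- cells minus the mean of the day 14 minus day 1 changes of CD9+ and CX3CR1+ macrophages. It used 12 of the 16 libraries of the series, 4 of F4/80- cells and 8 of macrophages, chosen by their population labels and not by any measured value. The mice were wild-type C57BL/6 males, 12 weeks old at surgery, and each library was a pool of several mice, with 2 libraries per population and day. The mice were too few for a separate pool per library, so that populations shared mice, and which libraries did is not stated. All cells were live, CD45+, CD11b+, Ly6G- and negative for lineage markers of lymphocytes (B220, CD3e), NK cells (NK1.1), erythroid cells (Ter119) and progenitors (c-kit, CD34). F4/80- cells were then gated as F4/80-, CD9+ macrophages as F4/80+ CD9+, and CX3CR1+ macrophages as F4/80+ CX3CR1+ CD9-, so that the rare cells with both antigens went with the CD9+ sort. Every mouse had the surgery, and there was no unoperated group.

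Monocytes enter injured tissue from blood and lose or gain surface antigens as they turn into macrophages. F4/80, the product of Adgre1, is an adhesion G protein-coupled receptor that mature mouse macrophages carry and that neutrophils and early monocytes carry weakly or not at all. A CD11b+ F4/80- gate without Ly6G+ cells can therefore hold monocytes, basophils, dendritic cells and granulocyte precursors, while neutrophils store their proteases, lectins and antimicrobial proteins in granules that are filled in sequence during maturation in the bone marrow.

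Library totals lay between 9233952 and 19814119 counts and were higher on day 1 in every population, so that depth and day moved together. Any other difference between the library sets of the days and the effect of time cannot be told apart. The libraries of CD9+ macrophages on day 1 were the least alike, with a correlation of log2 values across genes of 0.935, against 0.978 to 0.988 in the other 5 groups. Normalized levels are given as CPM, that is, counts relative to the library total scaled by TMM factors. Calls were made with edgeR's quasi-likelihood test, and required an absolute log2 value of at least 1 beside a Benjamini-Hochberg adjusted p under 0.05 over 11998 genes. In bulk samples, fewer cells of a type and less RNA per cell cannot be told apart.

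Adgre1 followed the sort, and the F4/80- libraries also held large amounts of granulocyte transcripts. Adgre1 lay between 8.403 and 13.8 CPM in the 4 F4/80- libraries and between 120 and 216 CPM in the 8 macrophage libraries, with no overlap. Macrophage markers were not all low in F4/80- libraries. The complement gene C1qa lay at 0 to 1.22 CPM there, and Apoe, a lipid carrier, at 26.8 to 35.9 CPM against 719 to 2017 CPM in macrophages. The lysozyme gene Lyz2, however, lay at 2951 to 4171 CPM in F4/80- and at 3764 to 4169 CPM in CD9+ libraries, which overlapped. The 12 macrophage markers summed to 3298 to 4435 CPM in F4/80-, 5897 to 8408 CPM in CD9+ and 10520 to 11680 CPM in CX3CR1+ libraries. Ly6g was low in F4/80- cells, at 6.94 to 10.1 CPM, yet the secondary granule gene Ngp lay at 11450 to 15580 CPM and Ltf, encoding lactoferrin, at 7979 to 9724 CPM. The summed level of 11 neutrophil markers was 34460 to 44490 CPM in F4/80- libraries, 5978 to 21100 CPM in CD9+ and 677 to 1152 CPM in CX3CR1+ libraries. The 9 basophil and mast cell markers summed to 1449 to 2312 CPM in F4/80- libraries, at most 608 CPM in CD9+ and at most 10.3 CPM in CX3CR1+ libraries. Monocyte markers were present in all populations, with Ccr2, the receptor of the chemokine CCL2, at 267 to 320 CPM in F4/80- cells. The F4/80- population is therefore described by its gate and not as monocytes.

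**Figure D1:**
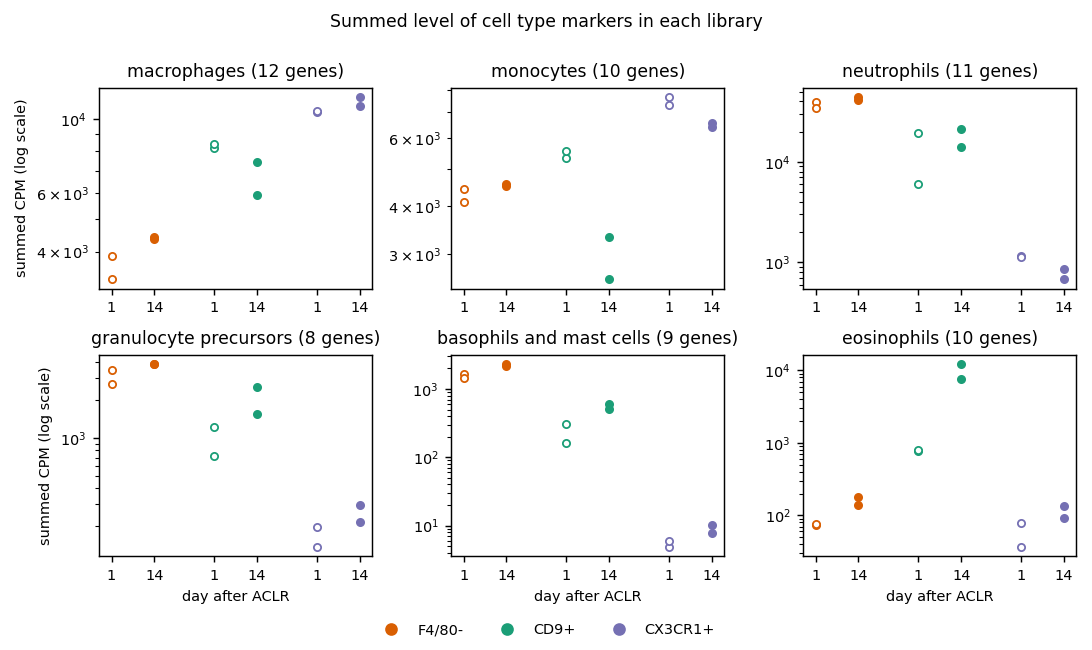
Summed CPM (log axis) of 6 sets of cell type markers in each of the 12 libraries by day after ACLR, with open points for day 1 and filled points for day 14. Granulocyte and basophil markers were highest in F4/80- libraries, and eosinophil markers went in CD9+ libraries from 765 and 803 CPM on day 1 to 7600 and 12240 CPM on day 14.

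Other marker sums moved with the day and stand beside the results. The 10 eosinophil markers summed to 73.2 and 75.5 CPM in F4/80- cells on day 1 and to 140 and 177 CPM on day 14, while in CD9+ cells they went from 765 and 803 to 7600 and 12240 CPM. Neutrophil markers in CD9+ cells on day 1 stood at 19230 CPM in library 1 and 5978 CPM in library 2, and the day 14 values of 21100 and 14110 CPM overlapped with this range. In CX3CR1+ cells on day 14, library 2 stood apart in erythroid (84.6 against 12.2 CPM) and stromal markers (106 against 25.4 CPM). Monocyte markers in CD9+ cells went from 5342 and 5548 to 3333 and 2583 CPM. In F4/80- cells basophil and mast cell markers went from 1655 and 1449 to 2312 and 2137 CPM, and 7 markers of plasmacytoid dendritic cells from 81.5 and 84.9 to 131 and 135 CPM. Most of the latter rise was Runx2, which went from 43.1 and 46.9 to 84.2 and 93.8 CPM. Tcf4 went from 31.9 and 33.98 to 36.2 and 34.25 CPM, and the other members were far lower. The part of these sums in the results below was not tested.

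From day 1 to day 14, 102 genes changed differently in F4/80- cells and macrophages, 0.85% of the 11998 genes tested. The difference was positive for 30 genes (0.25%) and negative for 72 genes (0.6%). F4/80- cells themselves changed in 390 genes (3.25%), 121 of them up (1.01%) and 269 down (2.24%), and the macrophage mean changed in 934 genes (7.78%), 472 up (3.93%) and 462 down (3.85%). In the macrophage mean, 355 of the 390 genes that changed in F4/80- cells had the same sign of change. The changes correlated with r = 0.482 across all 11998 genes and r = 0.695 across the 7986 with a mean of at least 10 CPM, which describes genes that share libraries and depth and carries no p. Of the 390 genes, 27 were among the 102.

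The count of 102 depended on single libraries. It was 19 without library 1 of F4/80- cells on day 14, 30 without library 1 of F4/80- cells on day 1, and 340 and 199 without library 1 or library 2 of CD9+ macrophages on day 1. Every one of the 12 fits that left out 1 library kept 17 of the 102 genes called. They include Retnlg, Lrg1, Ier3, Flt1 and Chdh, described below, and the unnamed genes Gm44187 and F730016J06Rik, which are not described.

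The 102 genes fell into 5 patterns by their own calls. In 57 genes the macrophage change was called and the F4/80- change was not, 22 with a positive and 35 with a negative difference. In 17 genes, all with a negative difference, the change was called in F4/80- cells and not in the macrophage mean. In 6 genes both changed in opposite directions, in 4 both changed in the same direction, and in 18 neither change passed the threshold by itself. A change called in one population and not in the other was counted here only where the difference itself was called.

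**Figure D2:**
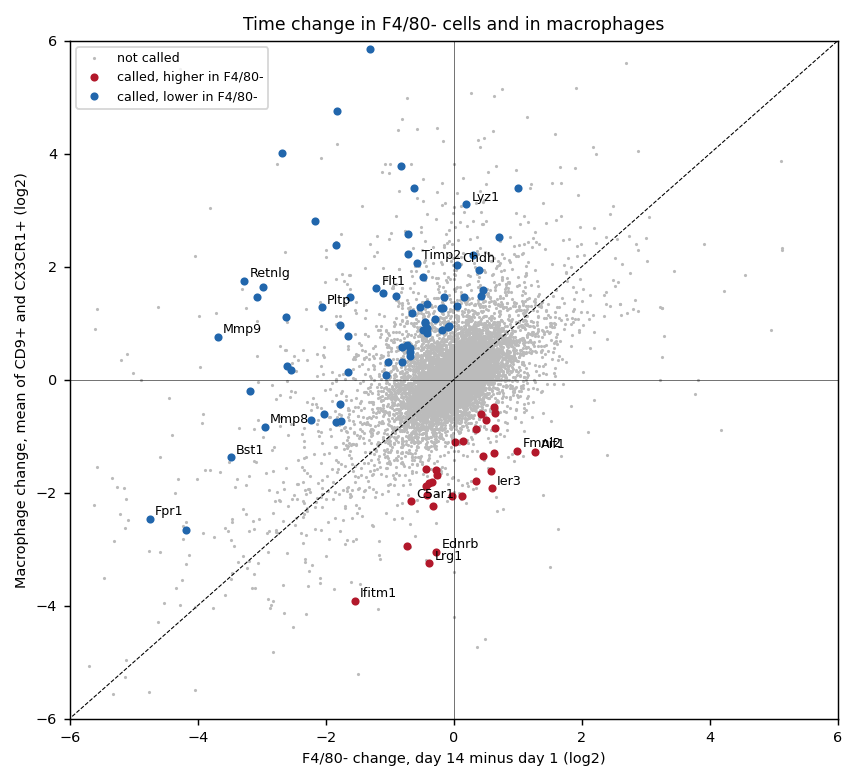
Change from day 1 to day 14 (log2) in F4/80- cells on the horizontal axis and as the mean of CD9+ and CX3CR1+ macrophages on the vertical axis, for each gene tested, with the dashed line marking equal change. The 30 genes with a positive difference lie below the line and the 72 with a negative difference above it, and 25 genes, 3 of them called with a negative difference, lie outside the plotted range of 6 log2 units.

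The 30 genes with a positive difference were mostly genes that fell in macrophages. The macrophage mean was lower on day 14 for all 30, past the threshold for 24, and 28 of 30 changed by less than 1 on the log2 scale in F4/80- cells. Their median change was 0.08 in F4/80- cells, -1.15 in CD9+ and -1.97 in CX3CR1+ macrophages, on the log2 scale, against medians of -0.02, 0.00 and 0.03 over all genes tested. Among the 12 genes with the highest difference by the naming rule, CX3CR1+ macrophages fell past the threshold in 12 and CD9+ macrophages in 6. Over all 11998 genes, such falls were called for 416 genes in CX3CR1+ and 418 genes in CD9+ macrophages. Choosing genes by a positive difference itself favours falls in macrophages, so these counts are a description only.

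Ier3, an immediate early gene whose product restrains cell death after stress, lies on chromosome 17 (mm10, 35821684 to 35822923). Its level in F4/80- cells was 51.1 and 44.9 CPM on day 1 and 74.2 and 70.8 CPM on day 14. In CD9+ macrophages it went from 92.2 and 192 to 41.1 and 45.1 CPM, and in CX3CR1+ macrophages from 118 and 116 to 29.4 and 23.9 CPM. The days did not overlap in any population, and F4/80- cells went from the lowest of the populations to the highest. The difference in change was 2.52 ± 0.32 on the log2 scale (SE, adjusted p = 0.00119), with a fall of 3.80-fold in the macrophage mean, and lay between 2.21 and 2.74 when single libraries were left out.

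Aif1, encoding the actin-binding protein IBA1 of macrophages and microglia, moved in opposite directions. It rose in F4/80- cells from 3.45 and 2.92 CPM to 7.90 and 7.48 CPM. It fell from 38.2 and 62.1 to 14.3 and 26.1 CPM in CD9+ and from 62.5 and 58.3 to 26.3 and 24.8 CPM in CX3CR1+ macrophages. F4/80- levels stayed below every macrophage library on both days, with the gap narrowed. The difference was 2.54 ± 0.37 (adjusted p = 0.00388), the rise in F4/80- cells being 1.27 ± 0.31 (adjusted p = 0.0252).

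Ifitm1, an interferon-inducible membrane protein gene, fell in all populations and least in F4/80- cells. Its levels went from 137 and 110 to 44.6 and 40.0 CPM in F4/80- cells, from 73.4 and 47.3 to 8.23 and 5.05 CPM in CD9+ and from 63.3 and 57.4 to 1.56 and 3.24 CPM in CX3CR1+ macrophages. The falls were 2.92-fold in F4/80- cells and 15.1-fold in the macrophage mean, and the difference was 2.37 ± 0.31 (adjusted p = 0.0016). Genes of the Ifitm family resemble each other, and reads could be shared between them.

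C5ar1, the receptor of the complement fragment C5a, showed the same order. It was 67.4 and 65.3 CPM on day 1 and 41.0 and 42.3 CPM on day 14 in F4/80- cells, a change of -0.67 that did not reach the size threshold. CD9+ macrophages went from 99.2 and 134 to 49.1 and 48.3 CPM and CX3CR1+ macrophages from 84.2 and 107 to 10.9 and 12.2 CPM. The difference of 1.48 ± 0.19 (adjusted p = 0.00119) was called against CX3CR1+ (2.37) and not against CD9+ macrophages (0.59, adjusted p = 0.181). CD9+ and CX3CR1+ macrophages differed from each other in this change by 1.78 (adjusted p = 0.000662).

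Several of the highest differences rested on CX3CR1+ macrophages. Lrg1, a secreted glycoprotein that modulates TGF-beta signalling and is stored in neutrophil granules, was 102 and 104 CPM on day 1 and 77.8 and 79.9 CPM on day 14 in F4/80- cells. It was 72.5 and 48.3, then 46.6 and 28.4 CPM in CD9+ cells, but went from 59.2 and 47.2 to 1.13 and 0.740 CPM in CX3CR1+ macrophages. The difference against the mean was 2.86 ± 0.32 (adjusted p = 0.00042), composed of 5.42 against CX3CR1+ and 0.30 against CD9+ macrophages.

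Cdh1, encoding E-cadherin, was at 90.4 to 108 CPM in all 4 F4/80- libraries and at 18.6 to 24.5 CPM in all 4 CD9+ libraries, and fell from 5.38 and 9.48 to 0.434 and 0.555 CPM in CX3CR1+ macrophages. Its difference was 2.19 ± 0.33 (adjusted p = 0.0048), with 4.01 against CX3CR1+ and 0.38 against CD9+ macrophages. The same split held for Chst11, a chondroitin sulfotransferase gene (3.62 against CX3CR1+, 0.67 against CD9+), Gpr84, a receptor for medium-chain fatty acids (2.97 and 1.07), and Itga6, an integrin subunit named after its values were seen (2.30 and 0.18). For each of Lrg1, Cdh1, Chst11, Gpr84 and Itga6 the CD9+ and CX3CR1+ changes differed from each other past the threshold. Such a difference was called for 22 of the 102 genes and for 2.28% of all genes tested.

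Fmnl2, a formin that builds actin filaments at the cell edge, went in F4/80- cells from 28.4 and 24.5 to 50.9 and 54.0 CPM, a change of 0.99 just under the size threshold. It went from 63.0 and 65.6 to 43.8 and 47.6 CPM in CD9+ and from 18.9 and 25.8 to 3.21 and 7.77 CPM in CX3CR1+ macrophages. No population overlapped between days. The difference was 2.25 ± 0.30 (adjusted p = 0.00193) and stayed called without any 1 library, as did those of Ier3, Aif1, Ifitm1, C5ar1, Lrg1, Cdh1, Chst11, Gpr84 and Itga6.

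The remaining genes of the 12 highest were less stable. Ednrb, the endothelin B receptor, was at 0.651 to 1.60 CPM in all F4/80- libraries and fell from 25.65 and 25.05 to 1.24 and 1.42 CPM in CD9+ macrophages, with a difference of 2.77 ± 0.59 (adjusted p = 0.0418). Its call was kept in 2 of the 12 fits that left out a library (2.12 to 3.28). Carmil1, a regulator of actin capping, had a difference of 2.21 and kept its call in 5 of 12 fits (1.89 to 2.5). Igf2r, the receptor that routes lysosomal enzymes and takes up IGF2, had a difference of 2.19 and lost its call without any 1 of the 4 F4/80- libraries (1.83 to 2.93 over the 12 fits). Ddit4, a stress-induced inhibitor of mTORC1, had a difference of 1.94 and kept its call in 2 of 12 fits (1.5 to 2.22), and lost it in a fit with the replicate number within day as a block, called the replicate block below (adjusted p = 0.0505).

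**Figure D3:**
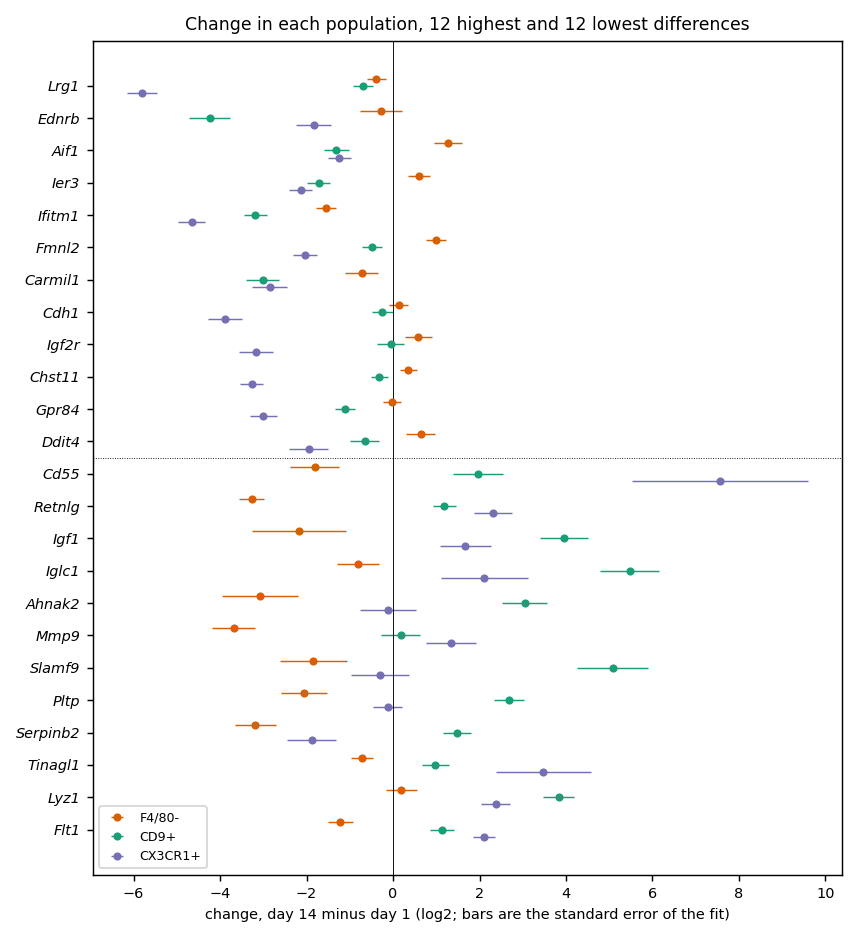
Change from day 1 to day 14 (log2, horizontal axis) in F4/80- cells, CD9+ and CX3CR1+ macrophages for the 12 genes with the highest (above the dotted line) and the 12 genes with the lowest difference, with bars for the standard error of the fit. Above that line the F4/80- points lie to the right of the CX3CR1+ points in all 12 genes. Below it they lie to the left of both macrophage points in all 12, where Cd55, Igf1, Ahnak2 and Tinagl1 had a group at the floor and their fitted points are no bound. These positions were fixed by the naming rule, which required the same sign against both macrophage populations.

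Of the 14 tested acute cytokines and mediators, 1 had a positive called difference and 0 a negative one, against 0.25% and 0.6% of all genes. The median difference was 0.47. Setting the genes with a group at the floor to their bound, with 1 left out that has none, gave a median of 0.24. The called gene was Ptgs2, encoding the prostaglandin synthase COX-2. It lay at 84.6 and 84.0, then 72.3 and 67.9 CPM in F4/80- cells, and went from 237 and 370 to 45.2 and 57.5 CPM in CD9+ and from 134 and 190 to 80.8 and 104 CPM in CX3CR1+ macrophages. On day 1 both F4/80- libraries were below all macrophage libraries, and on day 14 they lay between CD9+ and CX3CR1+. The difference was 1.42 ± 0.31 (adjusted p = 0.0437), and the call was kept in 3 of 12 fits without 1 library. Il1b, encoding interleukin 1 beta, fell in all populations (log2 change of -1.67 in F4/80- cells and -1.91 in the macrophage mean), with a difference of 0.24 (adjusted p = 0.749). Osm, encoding oncostatin M, had a difference of 0.86 (adjusted p = 0.0516).

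Among 17 tested chemokines, Ccl2, the monocyte attractant, had a positive called difference and Cxcl9 a negative one, against 0.25% and 0.6% of all genes. Ccl2 was 40.6 and 45.4 CPM, then 34.3 and 29.4 CPM in F4/80- cells, and fell from 544 and 392 to 63.7 and 87.9 CPM in CD9+ and from 366 and 484 to 208 and 180 CPM in CX3CR1+ macrophages. F4/80- cells thus held the lowest level on both days. The difference was 1.45 ± 0.25 (adjusted p = 0.0102). It was not called without either day 1 library or without library 1 of day 14 of F4/80- cells, at values between 1.32 and 1.58 over the 12 fits. Cxcl9, an attractant of T cells induced by interferon-gamma, had 0 counts in both CD9+ libraries of day 1 and 10.04 and 6.06 CPM on day 14, against at most 1.19 CPM in any F4/80- library. Set against the floor of 3 counts per library, its difference was -5.10 or lower. The call was kept in 4 of 12 fits without 1 library, and was lost with the replicate block (adjusted p = 0.0511).

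In the Toll-like receptor and NF-kappaB list, 1 of 22 tested genes was called, against 0.85% of all genes. Of the 22 differences 16 were positive, and the median was 0.39. Nfkbia, the inhibitor that NF-kappaB itself induces, was 125 and 139 CPM and then 205 and 209 CPM in F4/80- cells. It went from 293 and 452 to 256 and 299 CPM in CD9+ cells, where the days overlapped, and from 219 and 221 to 88.3 and 90.9 CPM in CX3CR1+ cells. The difference was 1.5 ± 0.32 (adjusted p = 0.0371), kept in 2 of 12 fits without 1 library. Tnfaip3, another inhibitor of this pathway, rose in F4/80- cells by 1.31 (adjusted p = 0.00774), with a difference of 0.53 that was not called. Cd14, the lipopolysaccharide co-receptor, had a difference of 0.47 (adjusted p = 0.459).

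The promoter of Nfkbia is shown because its kB element is a textbook example of feedback in this pathway. It is written 5′ to 3′ on the strand of the gene for the 100 bases before the RefSeq start (GRCm38.p6, chr12:55492648-55492747, minus strand), with the match to the NF-kappaB consensus of GGGA, any base and TTTCC, here on the opposite strand, in capitals.
Nfkbia: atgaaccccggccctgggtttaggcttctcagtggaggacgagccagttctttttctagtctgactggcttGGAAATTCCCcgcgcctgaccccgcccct
This consensus, searched on both strands, is in 0.411% of the 32851 RefSeq promoter windows of 300 bases. Of the 23 genes with a positive difference that have such a window, Nfkbia alone holds it, and of the 48 with a negative difference 0 do.

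Among 24 tested immediate early genes 2 were called, Ier3 and Egr1, both with a positive difference, against 0.25% of all genes. Of the 24 differences 19 were positive, and the median was 0.31. Egr1, a zinc finger transcription factor of the early growth response, was 346 and 285 CPM and then 518 and 466 CPM in F4/80- cells, and went from 368 and 263 to 242 and 217 CPM in CD9+ and from 356 and 335 to 220 and 197 CPM in CX3CR1+ macrophages. On day 14 both F4/80- libraries were above all macrophage libraries, and on day 1 the populations overlapped. The difference was 1.24 ± 0.26 (adjusted p = 0.037). It was kept in 2 of 12 fits without 1 library and was not called with scaling by library size alone.

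In the list of glycolysis and hypoxia response, 19 of 23 differences were positive and the median was 0.30. Vegfa alone was called, against 0.85% of all genes. Hif1a, the oxygen-regulated transcription factor subunit and among the 30 genes though outside this list, was named after its values were seen. It went from 127 and 126 to 94.5 and 93.2 CPM in F4/80- cells, from 470 and 524 to 156 and 176 CPM in CD9+ and from 466 and 505 to 165 and 160 CPM in CX3CR1+ macrophages. Days did not overlap in any population, F4/80- levels were the lowest throughout, and the difference corresponded to 2.22-fold (adjusted p = 0.00496), lost without library 1 of F4/80- cells on day 14 (log2 values of 1.11 to 1.2 over the 12 fits). Vegfa, the vascular growth factor, was 71.4 and 78.4, then 59.9 and 63.0 CPM in F4/80- cells, and fell from 254 and 397 to 89.3 and 90.1 CPM in CD9+ and from 87.6 and 109 to 38.6 and 39.5 CPM in CX3CR1+ macrophages. Its difference of 1.31 ± 0.25 (adjusted p = 0.0189) was not called without any 1 of the 4 F4/80- libraries (1.13 to 1.45 over the 12 fits). The glycolytic genes Pkm and Gpi1 had differences of 0.53 and 0.21, and neither passed the test. Among 11 tested complement genes, C5ar1 was the one called, against 0.85% of all genes. C3, the central complement component, had a difference of 0.09 and C3ar1 one of 0.90, neither called.

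**Figure D4:**
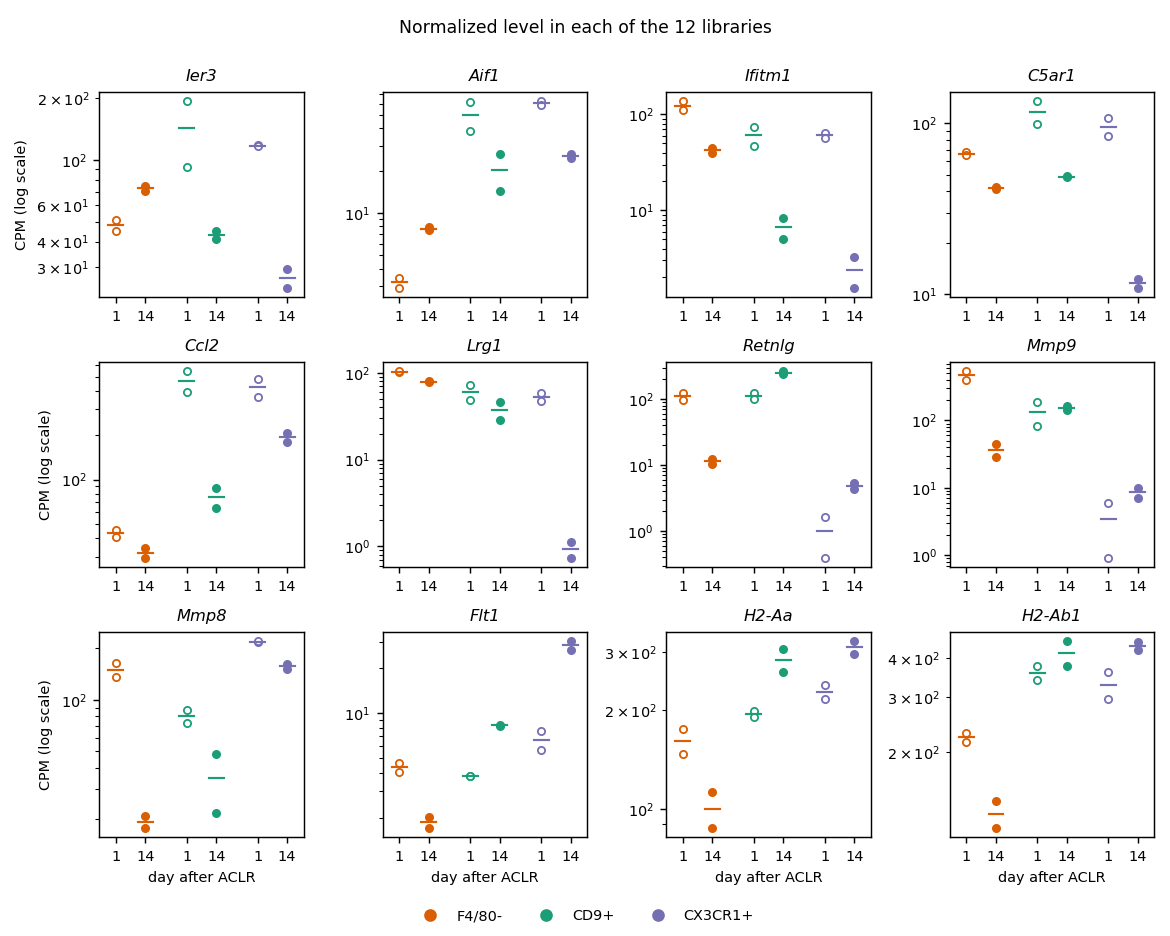
Level (CPM, log axis) of 12 genes in each of the 12 libraries, by population and day after ACLR, with open points for day 1, filled points for day 14 and a line at the mean of 2 libraries. The first 6 genes, from Ier3 to Lrg1, had a positive difference and the other 6, from Retnlg to H2-Ab1, a negative one, with Retnlg at 10.5 and 12.3 CPM in F4/80- cells on day 14 against 122 and 97.96 CPM on day 1.

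The 72 genes with a negative difference were mostly lower on day 14 in F4/80- cells and higher in macrophages, with the macrophage mean up in 61 and the F4/80- mean up in 11. Their median change was -0.81 in F4/80- cells, 1.07 in CD9+ and 1.14 in CX3CR1+ macrophages. The change was called in F4/80- cells for 25 of them and in the macrophage mean for 43. On day 1 the mean level was highest in F4/80- cells for 43 of the 72 genes, and on day 14 for 10. Of the 72, 64 had a value of -1 or lower against CD9+ and 65 against CX3CR1+ macrophages. The 72 genes were chosen by their negative difference, which itself favours such counts of direction, rank and size. These counts describe the chosen genes and test nothing. The median difference was -1.87, and -1.82 with genes that had a group at the floor set to their bound and 3 without a bound left out.

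Retnlg, a resistin-like gene of mature granulocytes on chromosome 16 (mm10, 48872621 to 48874496), was the clearest of these. In F4/80- cells it fell from 122 and 97.96 CPM to 10.5 and 12.3 CPM, 9.67-fold lower. In CD9+ macrophages it rose from 122 and 101 to 242 and 264 CPM and in CX3CR1+ macrophages from 0.394 and 1.61 to 4.34 and 5.36 CPM. On day 1 the F4/80- and CD9+ libraries overlapped, and on day 14 every CD9+ library was above every F4/80- library. The difference was -5.02 ± 0.39 (adjusted p = 1.94e-05), called against each macrophage population alone, and lay between -5.65 and -4.65 without single libraries.

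Mmp9 and Mmp8, which encode proteases of neutrophil granules, also fell in F4/80- cells. Mmp9, gelatinase B, on chromosome 2 (mm10, 164940780 to 164955850), went from 536 and 402 to 28.3 and 44.7 CPM in F4/80- cells, 12.9-fold lower. It was 186 and 82.9, then 164 and 142 CPM in CD9+ and 0.919 and 6.04, then 7.12 and 10.1 CPM in CX3CR1+ macrophages, and neither change was called. The difference of -4.45 ± 0.61 (adjusted p = 0.00224) was not called without library 1 of F4/80- cells on day 14, with values of -5.37 to -4.02 over the 12 fits.

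Mmp8, neutrophil collagenase, went from 164 and 136 to 17.8 and 20.8 CPM in F4/80- cells, and from 86.7 and 73.3 to 48.2 and 21.6 CPM in CD9+ and 218 and 219 to 151 and 163 CPM in CX3CR1+ macrophages. All populations were lower on day 14, F4/80- cells by 7.76-fold. The difference was -2.12 ± 0.34 (adjusted p = 0.00705), lost without library 1 of F4/80- cells of either day (-2.34 to -1.77 over the 12 fits).

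Of the 11 tested neutrophil markers, these 3 had a called negative difference, against 0.6% of all genes. The median difference of the list was -0.51. In F4/80- cells 4 of the 11 fell past the threshold and 0 rose, against 2.24% and 1.01% of all genes. In the macrophage mean 3 of the 11 fell and 1 rose, against 3.85% and 3.93% of all genes. Other abundant neutrophil genes were not called. The difference was -0.51 (adjusted p = 0.812) for Ngp, -0.82 (adjusted p = 0.663) for Ltf and 1.35 (adjusted p = 0.324) for S100a9, a subunit of calprotectin. S100a9 was at 8733 and 7488 CPM on day 1 and at 9511 and 10350 CPM on day 14 in F4/80- cells, where the days did not overlap, and its change there was 0.29. Of the 8 tested granulocyte precursor genes edgeR called 0 (median -0.03), with 2 at an unadjusted p under 0.05, and DESeq2 called 0. Mpo, encoding the myeloperoxidase of primary granules, was at 1441 and 2012 CPM on day 1 and 1968 and 1987 CPM on day 14.

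Other genes of neutrophil biology, chosen after their values were seen, lay in the same group. Fpr1, the receptor of bacterial formyl peptides, fell in F4/80- cells from 33.3 and 25.2 to 0.725 and 1.46 CPM and by less in macrophages, with a difference of -2.28 ± 0.41 (adjusted p = 0.0155). It lost its call in 4 of the 12 fits, among them those without library 1 of F4/80- cells on either day (-2.84 to -1.84 over all 12). Bst1, an ADP-ribosyl cyclase of myeloid cells, fell from 24.6 and 15.0 to 1.96 and 1.55 CPM in F4/80- cells, 11.2-fold lower. It also fell in macrophages, 2.49-fold in CD9+ and 2.7-fold in CX3CR1+ cells. The difference was -2.11 ± 0.36 (adjusted p = 0.00964), lost in 3 of 12 fits (-2.42 to -1.71). Padi4, the deiminase that citrullinates histones in neutrophils, went from 196 and 184 to 111 and 126 CPM in F4/80- cells and from 120 and 97.9 to 160 and 161 CPM in CD9+ macrophages, with a difference of -1.10 ± 0.18 (adjusted p = 0.00755), lost in 2 of 12 fits (-1.19 to -1.01).

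In 4 genes of MHC class II presentation the change was lower in F4/80- cells than in macrophages, while most changes within a population did not pass the threshold. Class II molecules are alpha and beta chains that load peptides in endosomes, escorted by the invariant chain, and their genes share an upstream box module read under the coactivator CIITA. Of 10 tested genes, 4 had a called negative difference, against 72 (0.6%) of all 11998 genes. DESeq2 also called 4 of the 10, against 226 of all genes in either direction. They were H2-Aa, H2-Ab1 and H2-Eb1, which encode the chains, and Cd74, which encodes the invariant chain. Of the 10, 1 fell past the threshold in F4/80- cells and 1 rose in the macrophage mean, against 2.24% and 3.93% of all genes. The differences were positive for 4 and negative for 6, with a median of -0.87.

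H2-Aa, on chromosome 17 (mm10, 34282744 to 34287827), went from 175 and 147 to 87.8 and 113 CPM in F4/80- cells. It went from 198 and 190 to 260 and 307 CPM in CD9+ and from 238 and 215 to 296 and 322 CPM in CX3CR1+ macrophages. Days did not overlap in any population, and the F4/80- libraries were the lowest on both days. The difference was -1.18 ± 0.22 (adjusted p = 0.0195), while neither the F4/80- change of -0.68 nor the macrophage change of 0.50 reached the size threshold.

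H2-Ab1 went from 231 and 216 to 115 and 139 CPM in F4/80- cells, with a difference of -1.13 ± 0.20 (adjusted p = 0.0154). H2-Eb1 went from 113 and 100 to 44.1 and 60.6 CPM, a called fall of 1.03 on the log2 scale, with a difference of -1.33 ± 0.27 (adjusted p = 0.0329). Cd74 went from 433 and 391 to 249 and 264 CPM in F4/80- cells, from 546 and 661 to 768 and 911 CPM in CD9+ and from 694 and 623 to 1013 and 1056 CPM in CX3CR1+ macrophages, with a difference of -1.25 ± 0.20 (adjusted p = 0.00602). In all 4 genes the F4/80- days did not overlap, which held for 61.5% of all genes tested.

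The class II calls lay close to the threshold. The values without single libraries were -1.36 to -1.0 for H2-Aa, -1.27 to -0.99 for H2-Ab1, -1.57 to -1.12 for H2-Eb1 and -1.32 to -1.17 for Cd74, always negative. H2-Aa was lost without library 1 of F4/80- cells of either day and without library 2 of CX3CR1+ cells of day 14, H2-Ab1 without either day 1 library or library 1 of day 14 of F4/80- cells, Cd74 without library 1 of F4/80- cells of either day, and H2-Eb1 in 10 of 12 fits. The peptide loading gene H2-DMa had a difference of 0.58 and Ciita, the coactivator, of -0.61, and neither was called. The 12 markers of conventional dendritic cells, which carry class II strongly, summed to 99.6 to 113 CPM in the F4/80- libraries over both days, and the 11 of B and plasma cells to 628 to 939 CPM. Their part in the class II values was not tested.

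The 100 bases before the RefSeq starts of H2-Aa (GRCm38.p6, chr17:34287824-34287923, minus strand) and H2-Eb1 (chr17:34305767-34305866, plus strand) are shown because both genes had a called difference and both windows hold the Y box of this module. They are written 5′ to 3′ on the strand of the gene with the Y box letters CTGATTGG in capitals.
H2-Aa: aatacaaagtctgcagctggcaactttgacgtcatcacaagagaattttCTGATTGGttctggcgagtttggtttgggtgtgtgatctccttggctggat
H2-Eb1: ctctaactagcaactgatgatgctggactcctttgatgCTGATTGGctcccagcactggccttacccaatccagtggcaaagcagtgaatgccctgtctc
The box starts 51 bases before the start of H2-Aa and 62 bases before that of H2-Eb1. Searched on both strands, these letters are in 4.1% of the 32851 promoter windows, in 4 of the 48 genes with a negative difference that have a window (Cxcl9, H2-Aa, H2-Eb1 and Hspa1b) and in 2 of the 23 with a positive one (Gsn and Hif1a).

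Of 19 tested matrix remodelling genes, 12 fell and 0 rose in F4/80- cells, 9 fell and 3 rose in the macrophage mean, and 4 had a called negative difference. Over all 11998 genes 269 fell in F4/80- cells, 462 fell in the macrophage mean and 72 had a called negative difference. Beside Mmp8 and Mmp9 these were Timp2, an inhibitor of matrix metalloproteinases, and Serpinb2, an inhibitor of plasminogen activators. Timp2 went from 13.03 and 14.2 to 6.89 and 11.5 CPM in F4/80- cells, 1.49-fold lower and under the size threshold. It rose from 23.96 and 10.3 to 114 and 174 CPM in CD9+ and from 14.0 and 11.5 to 23.1 and 31.5 CPM in CX3CR1+ macrophages. The median difference of the list was -0.84, and -0.62 with genes at the floor set to their bound and 1 without a bound left out. For Timp2 it was -2.65 ± 0.40 (adjusted p = 0.0048), lost without library 1 of F4/80- cells on day 14. Serpinb2 fell from 3.501 and 4.29 to 0.435 and 0.407 CPM in F4/80- cells and rose from 14.7 and 22 to 44.4 and 57.6 CPM in CD9+ cells. Its difference was -2.98 ± 0.63 (adjusted p = 0.0377), kept in 3 of 12 fits.

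Among the other genes of the 12 lowest, several rose in CD9+ macrophages and were low in F4/80- cells. Pltp, a phospholipid transfer protein gene, went from 2.82 and 4.34 to 0.217 and 1.55 CPM in F4/80- cells and from 26.8 and 29.6 to 129 and 231 CPM in CD9+ cells, and was 20.8 to 28.9 CPM in all CX3CR1+ libraries. Its difference was -3.34 ± 0.57 (adjusted p = 0.0102), lost without library 2 of day 1 or library 1 of day 14 of F4/80- cells, with values of -5.26, without library 2 of F4/80- cells on day 14, to -2.49. Igf1, the growth factor, was at 0 and 0.145 CPM in F4/80- cells on day 14, under the floor, and rose in CD9+ cells from 2.54 and 1.90 to 27.6 and 42.0 CPM. Its difference against the floor was -3.5 or lower, and the call was kept in 3 of 12 fits and lost with the replicate block (adjusted p = 0.0509).

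Ahnak2, a large scaffold protein gene, had a difference of -4.01 or lower against the floor in F4/80- cells on day 14, and Slamf9, a SLAM family receptor gene, one of -4.23 ± 0.95 (adjusted p = 0.0491). Both rose in CD9+ macrophages, and kept their calls in 5 and 3 of 12 fits. That of Slamf9 was lost with the replicate block (adjusted p = 0.0617). Iglc1, an immunoglobulin light chain constant region gene that shares sequence with its neighbours, was 58.4 and 38.8, then 28.9 and 26.2 CPM in F4/80- cells and rose from 1.34 and 0 to 34.4 and 34.7 CPM in CD9+ cells (-4.61 ± 0.79, adjusted p = 0.0139). It was kept in 8 of 12 fits, with values of -7.82, without library 1 of CD9+ cells on day 1, to -3.84, and was not called by DESeq2 (adjusted p = 0.053).

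Cd55, the complement decay-accelerating factor, went from 18.1 and 16.2 to 5.07 and 4.64 CPM in F4/80- cells and had 0 counts in both CX3CR1+ libraries of day 1. It was 9.02 and 0.947, then 17.8 and 23.7 CPM in CD9+ cells. The difference against the floor was -4.65 or lower, kept in 7 of 12 fits. Tinagl1, an extracellular matrix protein gene, was also at the floor in CX3CR1+ cells on day 1, with a difference of -1.87 or lower, kept in 4 of 12 fits.

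Flt1, the VEGF receptor 1, and Lyz1, a lysozyme gene, were the more evenly supported of the lowest genes. Flt1 fell from 4.67 and 4.06 to 2.03 and 1.71 CPM in F4/80- cells and rose from 3.81 and 3.79 to 8.23 and 8.39 CPM in CD9+ and from 7.57 and 5.63 to 26.7 and 30.2 CPM in CX3CR1+ macrophages. All 3 changes were called and no days overlapped. The difference of -2.83 ± 0.35 (adjusted p = 0.00119) stayed called without any 1 library. Lyz1 was at 1.85 to 2.60 CPM in all F4/80- libraries and rose to 19.3 and 33.6 CPM in CD9+ and 13.5 and 14.7 CPM in CX3CR1+ macrophages. Its difference of -2.91 ± 0.43 (adjusted p = 0.00427) was lost without library 1 of F4/80- cells on day 14, and its reads can be mistaken for those of Lyz2, which lay at 2951 to 4171 CPM in F4/80- cells.

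Another set of genes was highest in F4/80- cells on day 1 and rose in macrophages. Chdh, choline dehydrogenase, was at 44.0 to 48.9 CPM in all 4 F4/80- libraries and rose from 13.2 and 10.4 to 39.6 and 39.6 CPM in CD9+ and from 1.23 and 1.51 to 6.95 and 6.66 CPM in CX3CR1+ macrophages (-1.98 ± 0.21, adjusted p = 0.00042). Days overlapped in F4/80- cells alone. The long noncoding RNA Mirt1 fell from 45.0 and 43.6 to 20.5 and 20.8 CPM in F4/80- cells and rose in both macrophage populations (-2.63 ± 0.26, adjusted p = 0.000226). Lmtk2, a kinase gene of endosomal traffic, had a difference of -1.48 ± 0.16 (adjusted p = 0.00042). These 3, singled out after their values were seen, stayed called without any 1 library.

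Myb, a transcription factor of haematopoietic progenitors, was 130 and 145, then 171 and 192 CPM in F4/80- cells and rose from 56.2 and 25.8 to 188 and 187 CPM in CD9+ and from 7.75 and 10.1 to 30.9 and 27.4 CPM in CX3CR1+ macrophages. Its difference was -1.55 ± 0.30 (adjusted p = 0.0217), kept in 3 of 12 fits. Hdc, which makes histamine, had a difference of -1.45 ± 0.32 (adjusted p = 0.0437), kept in 2 of 12 fits. Its level was 274 to 382 CPM in F4/80- cells. Marker sums in CD9+ cells also moved. Myb is itself among the stem and progenitor markers and Hdc among the basophil and mast cell markers. The sums of those lists therefore include these genes. The sum of granulocyte precursor markers went from 1216 and 717 to 2524 and 1567 CPM, that of 7 stem and progenitor markers from 158 and 123 to 396 and 381 CPM, and that of basophil and mast cell markers from 307 and 160 to 608 and 516 CPM. Their part was not tested.

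Ear2, an eosinophil ribonuclease gene that resembles Ear1 and other family members, was at 9.59 to 14.3 CPM in F4/80- cells and rose in CD9+ macrophages from 68.1 and 33.4 to 393 and 660 CPM, with a difference of -1.90 ± 0.37 (adjusted p = 0.0261), kept in 4 of 12 fits. It was called against CD9+ (-3.07) and not against CX3CR1+ macrophages (-0.74). The sum of eosinophil markers, which includes Ear2 itself, also rose in CD9+ libraries, as given above. The part of these markers was not tested. Mgl2, a galactose-binding lectin of alternatively activated macrophages, rose in CD9+ cells from 1.13 and 1.68 to 15.1 and 13.3 CPM and in CX3CR1+ cells from 0.350 and 0.521 to 4.95 and 4.53 CPM. In F4/80- cells it was 5.06 and 6.07, then 8.55 and 13.8 CPM. The difference was -2.39 ± 0.52 (adjusted p = 0.041), kept in 2 of 12 fits and lost with the replicate block (adjusted p = 0.0509).

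Arg1, encoding arginase 1, fell past the threshold in all populations. It went from 111 and 129 to 0 and 0.163 CPM in F4/80- cells, from 2173 and 2594 to 33.4 and 43.8 CPM in CD9+ and from 367 and 481 to 0.782 and 1.30 CPM in CX3CR1+ macrophages. F4/80- cells had the lowest level on both days, and their day 14 libraries were at the floor. The difference was not called (adjusted p = 0.0655), but was with the replicate block (adjusted p = 0.0337). In its list of alternative activation, Mgl2 was the 1 of 12 tested genes that was called, against 0.85% of all genes. Chil3, a chitinase-like gene, had a difference of 0.91 (adjusted p = 0.213).

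Heat shock and chaperone genes fell in F4/80- cells in 8 of 24 tested and in the macrophage mean in 4, against 269 and 462 of all 11998 genes (2.24% and 3.85%). A negative difference was called for 2, against 72 (0.6%) of all genes. Hspa1b, an inducible HSP70 gene nearly identical to Hspa1a, fell from 44.5 and 18.8 to 7.25 and 3.498 CPM in F4/80- cells and was 6.76 to 15.8 CPM in all macrophage libraries of both days. On day 1 both F4/80- libraries were above all macrophage libraries, and on day 14 both were below all macrophage libraries of that day. The difference was -2.72 ± 0.58 (adjusted p = 0.0379), kept in 4 of 12 fits. Hsph1, encoding HSP110, fell from 57.1 and 44.4 to 15.1 and 13.3 CPM in F4/80- cells, with a difference of -1.09 ± 0.25 (adjusted p = 0.0473), kept in 3 of 12 fits and lost with the replicate block (adjusted p = 0.0509).

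Of 28 tested interferon-stimulated genes 1 was called, against 0.85% of all genes. In this list 13 differences were positive and 15 negative, and the median was -0.01. Oas2, an antiviral oligoadenylate synthase, fell from 18.0 and 15.1 to 3.33 and 3.74 CPM in F4/80- cells, and went from 21.1 and 16.4 to 8.23 and 12.3 CPM in CD9+ and from 41.1 and 34.3 to 23.5 and 27.8 CPM in CX3CR1+ macrophages. The difference was -1.51 ± 0.27 (adjusted p = 0.0144), lost in 3 of 12 fits, all of them without an F4/80- library (-1.63 to -1.34). Ifitm3 had a difference of -0.72 and Parp14 of -0.03, neither called.

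**Figure D5:**
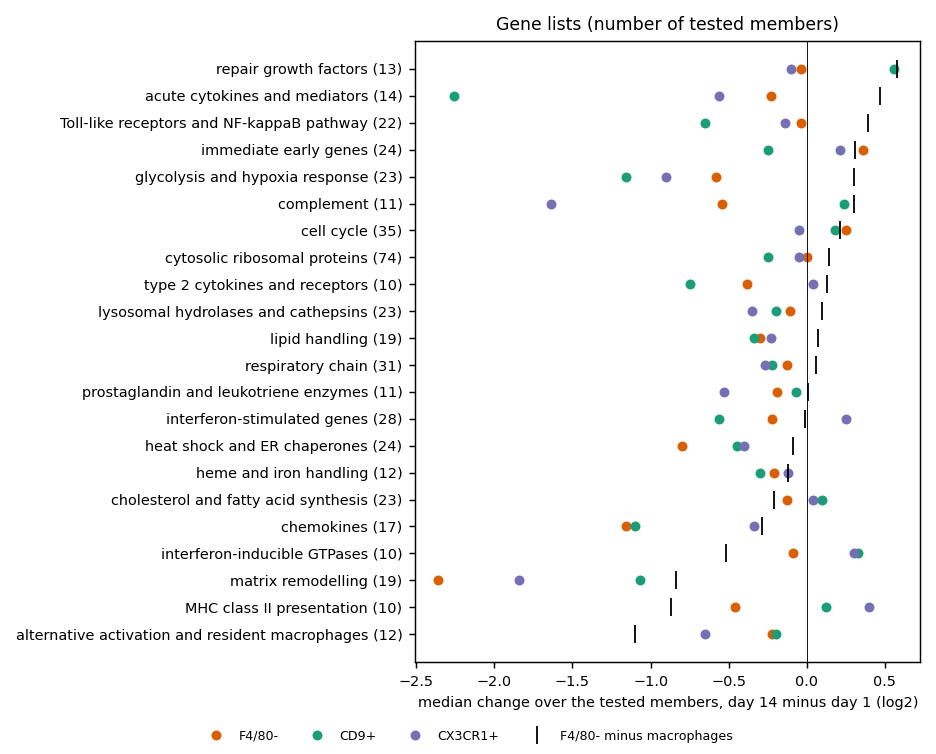
Median change from day 1 to day 14 (log2, horizontal axis) over the tested members of each gene list in F4/80- cells, CD9+ and CX3CR1+ macrophages (points) and the median difference (black ticks). The lowest median differences were those of alternative activation (-1.10), MHC class II presentation (-0.87) and matrix remodelling (-0.84), and the highest those of repair growth factors (0.58), acute cytokines (0.47) and the Toll-like receptor list (0.39), where alternative activation came to -0.47 and acute cytokines to 0.24 with floor genes set to their bound.

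Several lists held 0 members called by edgeR and 0 by DESeq2, and their medians are given beside the -0.02 of all genes. Cell cycle genes had positive differences in 33 of 35, with a median of 0.21 and 3 members at an unadjusted p under 0.05. Cytosolic ribosomal protein genes had positive differences in 64 of 74 (median 0.14, 2 at an unadjusted p under 0.05) and respiratory chain genes in 24 of 31 (median 0.06, 3 members). Genes of cholesterol and fatty acid synthesis were negative in 18 of 23 (median -0.21, 0 members). Scaling by library size alone moved the median of all genes to -0.12, about the size of these medians, and no direction is given for these lists.

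Of the 6 antigens used for sorting edgeR called 0, with 4 at an unadjusted p under 0.05, and DESeq2 called 1, Ly6g. The differences were -0.38 for Ptprc (CD45), 0.46 for Itgam (CD11b), -0.38 for Adgre1 and 0.39 for Cx3cr1, the lowest adjusted p of these 4 being 0.31 (edgeR). Cd9 lay at 107 to 121 CPM in all F4/80- libraries, close to the 142 to 183 CPM of CD9+ macrophages, and its difference of 0.85 (adjusted p = 0.0191) stayed under the size threshold. Ly6g had CX3CR1+ libraries of day 1 at the floor, an adjusted p of 0.257 with edgeR and of 0.0274 with DESeq2, and was called by edgeR without library 1 of CD9+ macrophages on day 1 (adjusted p = 0.0121).

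Set against each macrophage population alone, F4/80- cells differed in 203 genes from CD9+ (1.69%) and in 121 genes from CX3CR1+ macrophages (1.01%). Of the 102 genes, 25 were called in both single comparisons and 101 had the same sign in both, a description only, since the comparisons share the F4/80- libraries. In 51 of the 72 genes with a negative difference the comparison with CD9+ was called and in 38 that with CX3CR1+. In the 30 genes with a positive difference these numbers were 14 and 21.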

How the data were processed

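The authors deposited raw read counts per gene for 20200 genes and 16 libraries, made per the methods by trimming, alignment with STAR to mm10 and counting over Gencode genes from a stranded kit. The filter behind the 20200 genes was not given in the sources used here, and every gene in the table had a total of at least 17 counts. Totals of the 12 libraries were 9233952 to 19814119 counts.

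Groups came from the population and day labels. In R 4.3.3 with edgeR 4.0.16, genes with a mean of at least 3 CPM in 1 or more groups (11998) were scaled by TMM and fitted with the quasi-likelihood test over all 8 groups, Neutrophils included, for the shared spread (common biological coefficient of variation 0.178, 8 residual degrees of freedom). The contrast was F4/80- day 14 minus day 1 minus the mean of the same change in CD9+ and CX3CR1+ cells, 2-sided. Calls needed a Benjamini-Hochberg adjusted p under 0.05 over all 11998 genes and an absolute log2 value of at least 1. The floor was 3 counts per library; a gene with every library of a group at or under it was given by counts or a bound. The p-values measure the spread between pools of mice. DESeq2 1.42.0 was an alternative, with others given in the closing section.

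Genes were named as the 12 highest and 12 lowest called differences with a group mean of at least 10 CPM and the same sign against both macrophage populations, skipping predicted genes. Further names were the sorting antigens, up to 6 called members of each list by size (or, where fewer than 2 were called, the 2 with the highest mean level) and the 3 highest markers of other cell types. Other genes are marked as chosen after their values were seen. The populations and gene lists were chosen with earlier results of these data known. The fit was tested on simulated data.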

Additional observations from a re-analysis of the deposited data

Results flagged for a closer look

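Each value below is a difference of the day 14 minus day 1 change between populations, in log2 units, whose own test was past the threshold. Groups of 2 libraries allow no search for a library far from the others of its group.

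The change in F4/80- cells exceeded that of the macrophage mean by 2.86 for Lrg1, 2.77 for Ednrb, 2.54 for Aif1, 2.52 for Ier3, 2.37 for Ifitm1 and 2.25 for Fmnl2. It exceeded it by 2.21 for Carmil1, 2.19 for Cdh1, 2.19 for Igf2r, 2.14 for Chst11, 2.02 for Gpr84 and 1.94 for Ddit4. The fitted difference was negative for Retnlg (-5.02), Iglc1 (-4.61), Mmp9 (-4.45), Slamf9 (-4.23) and Pltp (-3.34), and for Serpinb2 (-2.98), Lyz1 (-2.91) and Flt1 (-2.83). For genes with a group at the floor the fitted value depends on the prior count and is no bound, at -6.58 for Cd55, -4.98 for Igf1, -4.53 for Ahnak2 and -2.94 for Tinagl1.

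Among the same genes, CD9+ and CX3CR1+ macrophages differed from each other. The CD9+ change exceeded the CX3CR1+ change by 5.39 for Slamf9, 5.12 for Lrg1, 3.63 for Cdh1, 3.36 for Serpinb2 and 3.12 for Igf2r. It exceeded it by 2.95 for Chst11, 2.80 for Pltp, 1.90 for Gpr84 and 1.54 for Fmnl2. For these 9 genes the macrophage mean stands between unlike changes.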

How the results depend on the processing

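The direction of the named differences held under nearly all settings, while the number of genes called moved with single libraries. Of 1422 values recomputed for 66 named genes, 1163 kept their side of the threshold, 243 lost a call, 7 gained one and 9 changed sign. The 9 belonged to uncalled genes near 0, namely Adgre1 (0.02 without library 1 of F4/80- cells on day 1, -0.686 to 0.02 over the fits without single libraries), Parp14 (-0.112 to 0.081 over these fits, above 0 in 5) and C3 (-0.006 with scaling by library size alone, -0.014 to 0.229 without single libraries, below 0 in 2).

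The 102 called genes became 226 with DESeq2, 56 with the level filter in every group, 66 with the 12 libraries alone and 27 with a test against a 1.5-fold change, and 19 to 340 without single libraries. The 30 positive ones became 68, 18 and 9 (DESeq2, level filter, 1.5-fold test) and 12 to 96 without single libraries, and the 72 negative ones 158, 38, 38 and 18 (with the 12 libraries alone in the third place) and 7 to 244. The 390 genes of the F4/80- change became 154 with the level filter, 732 with no size threshold, 157 with the 1.5-fold test and 165 to 537 without single libraries. The 934 of the macrophage mean became 209, 2948 and 587 in the same order, and 735 to 1277. Against CD9+ the 203 became 377 (DESeq2), 97 (level filter), 61 (1.5-fold test) and 15 to 961. Against CX3CR1+ the 121 became 217 (DESeq2), 48 (1.5-fold test) and 55 to 210. The level filter tested fewer genes, and leaving out a library removed samples; otherwise the cause was not tested.

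Fits with 1 library left in a group assumed that it varied like the others. With scaling by library size 110 genes were called, with upper quartile scaling 104, with edgeR's own filter 94, with no filter 110 and with no size threshold 132. Chosen after seeing the data, thinning to the smallest total gave 92, and leaving out library 2 of CD9+ day 1 and library 2 of CX3CR1+ day 14 together gave 137, 90 of them shared. Populations of a day shared mice, but no source says that equal replicate numbers mark 1 pool. Deviations of same-numbered libraries correlated weakly and positively in every pair (0.0132 to 0.144), which cannot decide whether such libraries shared a pool. The fit without pairing was kept. A fit with the replicate number within day as a block called 121, 91 of them shared. It called 355, 730, 241 and 142 for the F4/80- change, the macrophage mean, CD9+ and CX3CR1+. Of the named genes 6 lost their call with this block (Ddit4, Igf1, Slamf9, Cxcl9, Mgl2 and Hsph1, adjusted p of 0.0505 to 0.0617) and Arg1 gained one. With 2 pools per group, genes under about 3 CPM were not tested, and differences not called were not shown to be absent.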

Other observations

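Il6, encoding interleukin 6, was highest in F4/80- cells and rose there with time. It was chosen after its values were seen. Its level went from 54.0 and 62.0 CPM on day 1 to 132 and 122 CPM on day 14 in F4/80- cells, from 2.75 and 4.32 to 17.9 and 15.7 CPM in CD9+ cells, and stayed between 1.91 and 2.89 CPM in CX3CR1+ cells. The rise of 1.13 in F4/80- cells was called (edgeR, adjusted p = 0.0126), and its difference from the macrophage mean of 0.09 was not (adjusted p = 0.967), since the CD9+ change of 2.28 and the CX3CR1+ change of -0.19 differed from each other (2.46, adjusted p = 0.00953).

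Slc2a3, the glucose transporter GLUT3, was also chosen after its values were seen. It was 224 and 212, then 158 and 168 CPM in F4/80- cells, and rose from 72.2 and 54.5 to 178 and 154 CPM in CD9+ and from 2.23 and 3.33 to 4.52 and 9.06 CPM in CX3CR1+ cells. On day 14 the F4/80- and CD9+ libraries overlapped, and on day 1 they did not. The difference was -1.76 ± 0.27 (adjusted p = 0.00496), called without each library but library 1 of F4/80- cells on day 14 (-1.96 to -1.46 over the 12 fits).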
